A study of Homo sapiens with 9 samples.

Results

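The beta-like globin cluster comprises the genes of the beta-like chains of hemoglobin, and here it stands for HBE1, HBG1, HBG2, HBD and HBB with the noncoding gene BGLT3. Its members were all probe sets annotated to these 6 genes, a probe set being the group of short probes that measures a transcript on an Affymetrix array. The 6 genes are among 13288 annotated to the arrays, and they held 9 of the 27306 probe sets in the table. HBE1, HBD and BGLT3 had 1 probe set each, HBB had 3, and HBG1 and HBG2 had none of their own and shared 3, so 5 transcripts could be told apart.

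The 9 arrays measured RNA of K562 and HEL, human myeloid leukemia lines that can be driven towards red cells or towards megakaryocytes. K562 cells gave 6 arrays. Hemin at 25 µM, hemin at 50 µM, decitabine (DAC, which inhibits DNA methyltransferases) at 100 nM and the phorbol ester PMA at 5 nM had 1 array each, and untreated cells had 2. In HEL cells, 1 array each was made with 20 nM DAC, with 5 nM PMA and without treatment. DAC pulses numbered 3, lasted 24 h each and began 144 h before harvest, PMA was left on for 48 h, and how long hemin was left on was not found in the labels or the paper. The 20 nM dose of DAC and the 25 µM dose of hemin stand in the sample titles and not in the shared protocol, and the doses here are those of the titles. Neither line is a normal erythroblast. The labels do not say whether the 2 untreated K562 arrays came from separate cultures. The p-values below thus rest on a spread that could be technical. That spread also takes in the difference between the 2 hemin doses, which form a single group in the tests. With so few arrays, every value is imprecise.

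The genes of this locus are expressed in sequence during development, epsilon globin (HBE1) in the embryo, the gamma globins (HBG1 and HBG2) in the fetus, and delta (HBD) and beta globin (HBB) after birth. A distant enhancer, the locus control region, contacts 1 promoter or another as development proceeds, and factors such as BCL11A keep the gamma genes silent in adult cells. BGLT3 lies between the gamma genes and delta globin, next to the beta globin pseudogene HBBP1, and its noncoding RNA is known to promote gamma globin transcription. K562 cells are known for making embryonic and fetal hemoglobins and little adult hemoglobin.

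HBD was the protein-coding member with the largest range over the 9 arrays, and its promoter is shown because HBD had the largest changes of the protein-coding members with both hemin and PMA. RefSeq gave a promoter for 1 of the 6 members, at chr11:5234434-5234733 on the minus strand of GRCh38.p14, from 250 bases before the start site to 50 after it, and capitals mark the motifs searched on both strands.

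HBD promoter: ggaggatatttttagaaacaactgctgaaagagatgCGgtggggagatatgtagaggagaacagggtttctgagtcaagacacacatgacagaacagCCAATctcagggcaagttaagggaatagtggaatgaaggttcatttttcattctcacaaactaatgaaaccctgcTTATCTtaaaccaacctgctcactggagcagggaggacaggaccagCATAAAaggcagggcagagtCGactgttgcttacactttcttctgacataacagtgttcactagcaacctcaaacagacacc

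In it, CCAAT, the core of the CCAAT box, had 1 match, at -153 to -149 from the start site, and 34.6% of 35116 promoters of this length hold it. AGATAA, a motif bound by GATA factors, stood on the opposite strand at -78 to -73, so that the printed strand reads TTATCT (10.3% of promoters). The TATA-like motif CATAAA lay at -32 to -27 (10.6%). The letters CACCC, the core of the box that KLF1 binds in the HBB promoter, had 0 matches in this window, against 59.9% of promoters with a match. The dinucleotide CG, the site of DNA methylation, occurred 2 times, at -214 and at -12, and 96% of promoters hold it. No motif overlapped another.

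All values are log2 expression as deposited, so a difference of 1 is a doubling. The authors processed them with GCRMA, and the medians of the 9 arrays lay between 6.67 and 6.78. The lowest value was 2.25, the highest values of the arrays were 15.88 to 16.27, and values under 5 were treated as too dim to order. All 9 member probe sets reached 5 in every array. Of a list of erythroid markers, 10 of 15 genes were on the arrays and 7 to 10 of these were at 5 or more in each array. Of the megakaryocytic list, 9 of 12 were on the arrays, and 8 or 9 were at 5 or more in HEL cells. In K562 cells 1 or 2 were at 5 or more with hemin, 2 with DAC, 5 with PMA and 2 without treatment. Of the monocytic and granulocytic list 2 of 10 were on the arrays, of the lymphoid list 2 of 5, and of the fibroblast and epithelial list 2 of 5, and 0 to 2 of each were at 5 or more.

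The 2 untreated K562 arrays differed in the globins. Untreated replicate 1 lay above untreated replicate 2 in 9 of 9 member probe sets, against 43.8% of the 20260 probe sets kept in K562. The gap was 1.63 for HBE1, 2.18 for HBD, 1.91 to 2.29 for HBB, 0.38 to 0.47 for the gamma probe sets and 0.18 for BGLT3. Over all kept probe sets the median size of this gap was 0.33, and 0.86% had a gap larger than that of HBD. Differences from the untreated mean are therefore given with those from each untreated array wherever the choice matters.

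**Figure D1:**
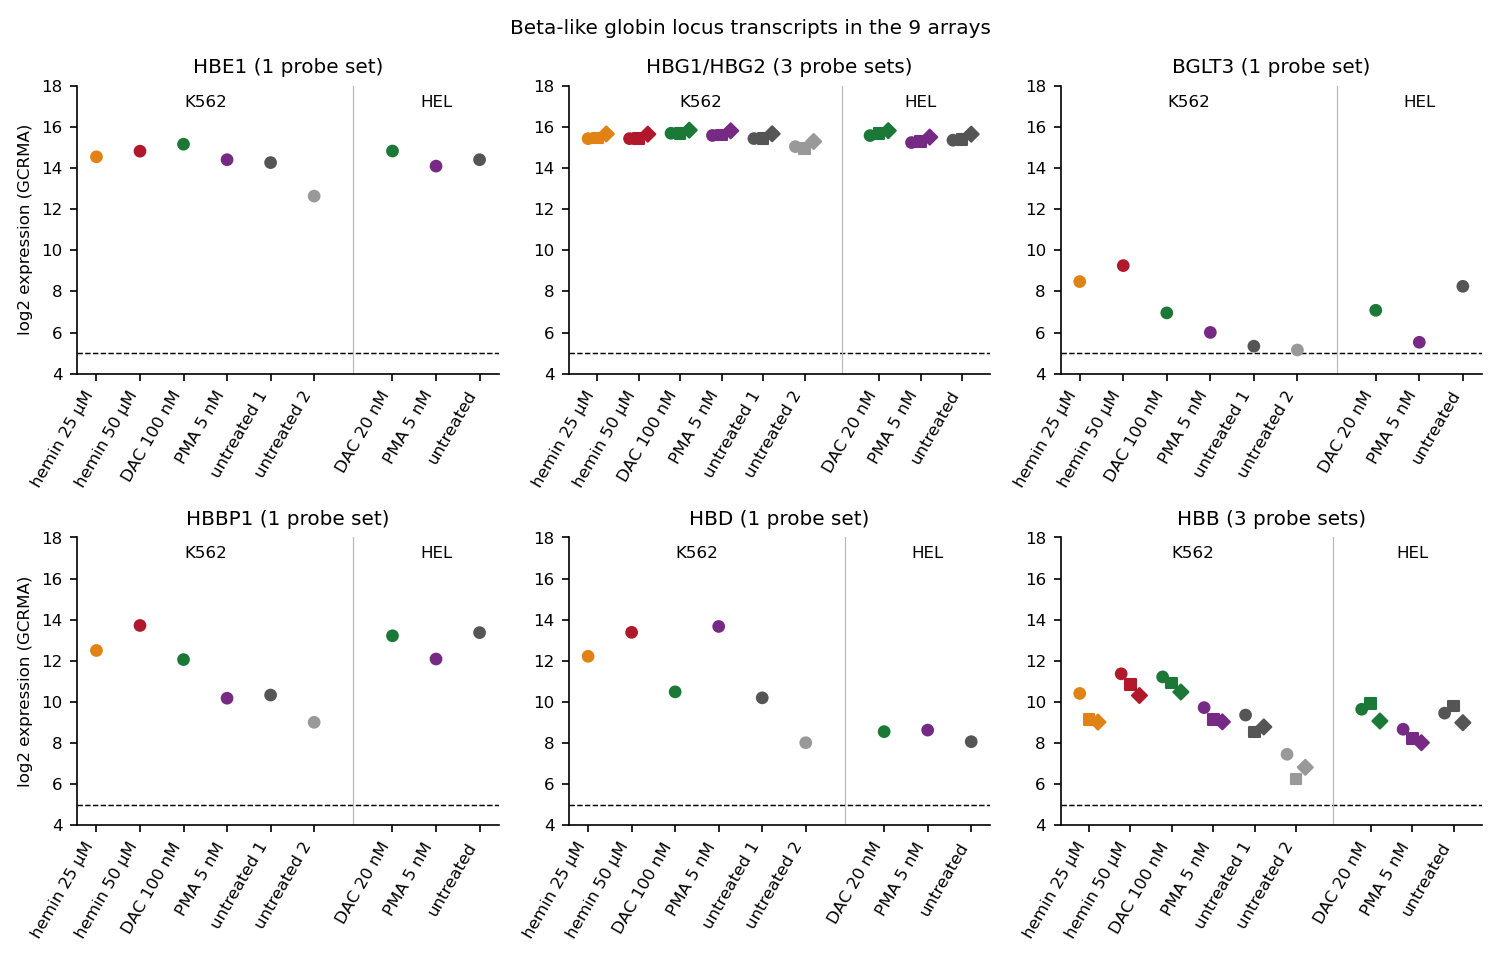
The vertical axis gives log2 expression from GCRMA and the horizontal axis the 9 arrays, for the members and HBBP1, K562 left and HEL right of the grey line, 1 point per probe set and array, with a marker shape for each probe set, and values under the dashed line, at 5, have no order. The untreated replicate 2 array of K562 is the lowest of the 9 in HBE1, gamma globin, HBD and HBB, while BGLT3 is at 8.48 and 9.26 with hemin, against 5.33 and 5.15 in untreated K562 cells.

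HBE1, the embryonic epsilon globin, was bright in every array. It was at 14.55 with 25 µM and 14.83 with 50 µM hemin, at 15.17 with DAC and at 14.41 with PMA, against 14.27 and 12.64 in untreated K562 cells. All 4 treated K562 arrays lay above both untreated arrays, by 0.14 to 0.89 above replicate 1 and by 1.77 to 2.53 above replicate 2. In limma, a linear model fitted over all probe sets, the log2 change was 1.23 with hemin (standard error 0.62, adjusted p = 0.515), 1.71 with DAC (standard error 0.76, adjusted p = 0.496) and 0.96 with PMA (standard error 0.76, adjusted p = 0.441), and none passed 0.05. HEL cells had 14.84 with DAC, 14.10 with PMA and 14.41 without treatment. When the 9 arrays were put in order from 15.17 downwards, each gap between neighbours but the last was under the residual SD of 0.62 in the K562 fit. The last, of 1.46, lay between HEL with PMA and untreated replicate 2 of K562. This SD is that of a single array, and a gap between 2 arrays varies more. The 2 untreated K562 arrays differed by 1.63, which is more than the last gap.

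The gamma globins, which pair with alpha chains in fetal hemoglobin, are nearly identical and could not be separated, since their 3 probe sets are shared, and the names of these also end in _x_at, which marks sets with probes that may match other transcripts. They lay between 14.97 and 15.85 in every array, at the 99.67th percentile of their array or higher. Averaged over the 3 probe sets, gamma globin was at 15.52 with 25 µM and 15.52 with 50 µM hemin, against 15.52 and 15.10 in untreated cells. Both hemin arrays were thus level with untreated replicate 1 and above replicate 2. It was at 15.74 with DAC and 15.68 with PMA, above both untreated arrays, by 0.18 to 0.26 with DAC and 0.15 to 0.17 with PMA over replicate 1 on the single probe sets. The log2 changes were 0.18 to 0.26 with hemin, 0.36 to 0.48 with DAC and 0.33 to 0.41 with PMA (adjusted p = 0.407 to 0.746 in limma), and against untreated replicate 1 alone 204419_x_at and 213515_x_at turned to -0.0030 and -0.0125 with hemin. HEL cells were at 15.70 with DAC, 15.35 with PMA and 15.48 without treatment. Only the gap of 0.25 between HEL with PMA and untreated replicate 2 of K562 exceeded the residual SD of 0.23 in the order of the 9 arrays. It was smaller than the 0.38 to 0.47 between the 2 untreated K562 arrays on the single gamma probe sets. These probe sets lie close to the highest value of each array, and whether the scale compresses a difference there was not tested.

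BGLT3 had the smallest p of the members for hemin-treated against untreated K562 cells. Its values were 8.48 (25 µM hemin) and 9.26 (50 µM), against 5.33 and 5.15 in untreated cells, which is just over the minimum of 5. The log2 change was 3.63, or 12.3-fold (standard error 0.34, unadjusted p = 0.000469, adjusted p = 0.418 in limma). It ranked 14 of 20260 probe sets by log2 change, and since the untreated arrays differed by 0.18 only, the change was 3.53 against replicate 1 alone and 3.72 against replicate 2 alone. With DAC it was at 6.95 (log2 change 1.71, standard error 0.41, adjusted p = 0.395) and with PMA at 6.0 (log2 change 0.76, standard error 0.41, adjusted p = 0.281). In both, BGLT3 lay above both untreated arrays.

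In HEL cells BGLT3 was lower with the same agents, at another dose for DAC, and the difference in response between the lines did not pass in limma (adjusted p = 0.123 for PMA and 0.615 for DAC). It was at 7.08 with DAC and 5.52 with PMA, against 8.25 in untreated HEL cells, a difference of -1.17 and of -2.72. Of the 19457 probe sets kept in HEL, 2.58% differed more in size with DAC and 2.07% with PMA. Untreated HEL cells exceeded untreated K562 cells in BGLT3 by a log2 value of 3.01, or 8.04-fold (standard error 0.41, adjusted p = 0.0386 in limma over the 9 arrays), and it was the member probe set that passed, 1 of 9, where 9.58% of 21850 probe sets passed as higher in HEL cells and 7.98% as lower (17.1% and 19.2% at an unadjusted p under 0.05). The call was lost against either untreated K562 array alone (adjusted p = 0.148 and 0.168), with a log2 difference of 3.10 and 2.91. Untreated HEL cells thus had a BGLT3 value next to that of hemin-treated K562 cells, 0.23 below the 25 µM array. That gap is under the residual SD of 0.34, which takes in the gap of 0.78 between the hemin doses.

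The pseudogene HBBP1, which neighbours BGLT3 and is no member, was looked at as part of the locus. It was at 12.50 and 13.72 with 25 and 50 µM hemin, against 10.33 and 9.0 in untreated K562 cells (log2 change 3.44, standard error 0.67, adjusted p = 0.454 in limma). With DAC it was at 12.06 and with PMA at 10.18, which is between the untreated arrays. Untreated HEL cells had 13.37. Over the 6 K562 arrays HBBP1 was the second gene of 9886 in likeness to BGLT3, with a root mean square difference of 0.47 between their log2 values after each was centred on its own mean. The array labels give no strand for these probe sets, and overlap of their transcripts was not tested.

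HBD encodes the delta chain of the minor adult hemoglobin. It was at 12.22 and 13.38 with 25 and 50 µM hemin and at 13.67 with PMA, against 10.19 and 8.01 in untreated K562 cells. These 3 treated arrays exceeded the higher of the untreated arrays by 2.02 at 25 µM, 3.19 at 50 µM and 3.48 with PMA. The log2 change was 3.70, or 13.0-fold, with hemin (standard error 0.90, adjusted p = 0.462 in limma) and 4.57, or 23.7-fold, with PMA (standard error 1.11, adjusted p = 0.0745). With PMA it stood alone among the members, since the other 8 probe sets had log2 changes of 0.33 to 1.74. The adjusted p with PMA crossed the threshold in some settings of limma only. It was 0.0498 after each array was centred on its median and 0.0498 with a minimum of 7 in place of 5. With no filter it was 0.161 and in the 9-array fit 0.125. It was 0.0566 after quantile normalization, 0.0644 with an intensity trend and 0.0654 with 1 probe set per gene.

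With DAC, HBD was at 10.49, 0.29 above untreated replicate 1 and 2.48 above replicate 2 (log2 change 1.38, standard error 1.11, adjusted p = 0.644 in limma). In HEL cells HBD was low in all 3 arrays, at 8.55 with DAC and 8.62 with PMA, against 8.06 untreated. Its order over the 9 arrays had gaps larger than the residual SD of 0.90, but each was smaller than the 2.18 between the 2 untreated K562 arrays. The order is therefore no ranking of the conditions. K562 with PMA and with 50 µM hemin came first, then 25 µM hemin, then DAC with untreated replicate 1, and last the 3 HEL arrays with untreated replicate 2. In K562 cells, PMA came with more megakaryocytic marker signal, a sum of 14240 over the 9 genes on the linear scale against 347.8 and 349.5 in the untreated arrays. Among these markers THBS1, GP9, PF4 and SELP stayed under 5 in every K562 array. The part of these markers in the HBD value was not tested.

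HBB, the adult beta globin, was measured by 3 probe sets whose names end in _x_at as well. On 209116_x_at, HBB was at 10.41 and 11.36 with 25 and 50 µM hemin, at 11.21 with DAC and at 9.72 with PMA, against 9.36 and 7.45 in untreated K562 cells. All treated K562 arrays lay above both untreated arrays on each of the 3 probe sets. Over the 3 probe sets the log2 change was 1.87 to 2.59 with hemin (adjusted p = 0.462 to 0.496 in limma), 2.68 to 3.53 with DAC (adjusted p = 0.451 to 0.478) and 1.23 to 1.74 with PMA (adjusted p = 0.407 to 0.475). Against untreated replicate 1 alone it was 0.88 to 1.53 with hemin, 1.70 to 2.38 with DAC and 0.25 to 0.60 with PMA. Against replicate 2 alone it was 2.85 to 3.74 with hemin, 3.67 to 4.67 with DAC and 2.21 to 2.89 with PMA. DAC was the agent with the highest HBB values in K562 cells on 211696_x_at and 217232_x_at, and 50 µM hemin on 209116_x_at, with the means of the 3 probe sets 10.87 and 10.83. The part of other globin transcripts in the HBB signal was not tested.

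HEL cells were at 9.07 to 9.92 in HBB with DAC and at 8.01 to 8.67 with PMA, against 8.98 to 9.80 untreated. The difference was -0.78, -1.59 and -0.97 with PMA, and 0.08 to 0.19 with DAC. Against untreated K562 cells, untreated HEL cells were higher in HBB by 1.05 to 2.41 (adjusted p = 0.332 to 0.556 in limma), which did not pass. The difference was 0.09, 1.27 and 0.21 on 209116_x_at, 211696_x_at and 217232_x_at against untreated replicate 1 alone, and 2.0, 3.56 and 2.17 against replicate 2 alone. In the order of the 9 arrays by mean HBB, the gap of 1.29 below the DAC and 50 µM hemin arrays of K562 and that of 1.46 above untreated replicate 2 exceeded the residual SD of 0.89. Both were smaller than the 1.91 to 2.29 between the 2 untreated K562 arrays on the HBB probe sets.

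**Figure D2:**
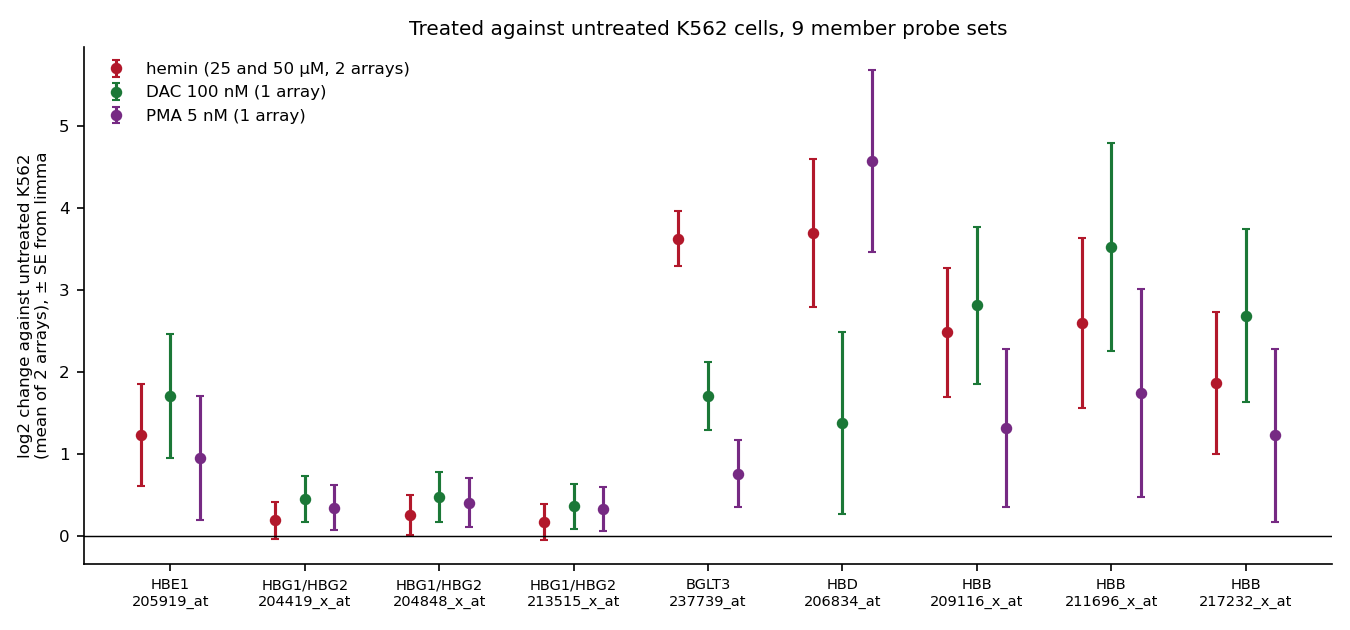
The vertical axis gives the log2 change from the untreated K562 mean of each member probe set (horizontal axis) for hemin (red, 2 arrays), DAC (green, 1 array) and PMA (purple, 1 array), with the standard error from limma as bars. HBD is highest with PMA at 4.57, BGLT3 is highest with hemin at 3.63, and HBB is highest with DAC.

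Across the cluster, hemin-treated K562 cells exceeded untreated cells over 1.5-fold in 6 of 9 member probe sets, where 11.9% of all 20260 were higher by this measure and 14.5% were lower, and 0 members were lower. The 6 were HBE1, BGLT3, HBD and the 3 of HBB, and they were the same with DAC and with PMA. Probe sets of HBB or of gamma globin measure the same transcripts, so these counts do not rest on 9 separate genes. In 7 of 9 the lower hemin array exceeded the higher untreated array, against 23.3% of all probe sets (22.4% lay below), the exceptions being 2 gamma probe sets. The median log2 change of the 9 was 1.87, against -0.0022 over all probe sets. At an adjusted p under 0.05 limma called 0 probe sets with hemin (0%), members included, and 1098 higher (5.42%) and 1056 lower (5.21%) had an unadjusted p under 0.05, of which 3 were members, BGLT3, HBD and HBB on 209116_x_at. The methods' t-test had 1444 of 20182 probe sets under 0.05 and 5 after Benjamini-Hochberg adjustment, and 1 member was under 0.05 before adjustment and none after. Without untreated replicate 2 the count of members over 1.5-fold higher was 5, beside 16.5% of all probe sets, and the median of the members was 0.88. HBE1 then left the count. Of the 10 erythroid markers on the arrays, 8 and 9 reached 5 with 25 and 50 µM hemin, against 8 in each untreated array. Their summed linear level was 35400 and 44790, against 28720 and 29770, with TFRC and RHAG the brightest in each of these arrays. The median log2 value of the 10 markers was 6.19 and 8.27, against 6.82 and 6.19. At 25 µM the median thus did not exceed both untreated arrays. The part of these markers in the globin values was not tested.

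The 2 hemin doses were compared as values only, with 1 array each. At 50 µM, 5 of 9 member probe sets were over 1.5-fold higher than at 25 µM, against 10.3% of all probe sets, and 0 were lower, against 14.7%. These were HBD, BGLT3 and the 3 of HBB, with differences of 0.78 for BGLT3, 1.17 for HBD and 0.96 to 1.70 for HBB. HBE1 differed by 0.27 between the doses and the gamma probe sets by -0.00, -0.01 and -0.01, which turned to 0.04 to 0.05 after median centring.

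With DAC in K562 cells, 6 of 9 were over 1.5-fold higher and 0 lower, where 15.7% of all probe sets were higher and 17.9% lower, and the median log2 change was 1.71 against -0.0167 over all. All 9 lay above both untreated arrays, against 35.5% of all (37.3% lay below both). Limma called 0 probe sets with DAC at an adjusted p under 0.05 (0%), and 1072 higher (5.29%) and 1141 lower (5.63%) had an unadjusted p under 0.05, 2 of them members, BGLT3 and HBB on 209116_x_at. Without untreated replicate 2 the count was 5 of 9, beside 13.8%, with a median of 0.89, and without untreated replicate 1 it was 8 of 9, beside 20.1%. Of the erythroid markers, all 10 on the arrays were at 5 or more with DAC, against 8 in each untreated array, and their summed linear level was 40770 against 28720 and 29770. The median log2 value of the 10 markers was 10.67, against 6.82 and 6.19. Their part in the globin values was not tested.

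With PMA in K562 cells, 6 of 9 were over 1.5-fold higher and 0 lower, where 26% were higher and 28.8% lower among all probe sets, and the median was 0.96 against -0.0756. Limma called 1379 probe sets as higher (6.81%) and 1407 as lower (6.94%), and 0 of 9 members. At an unadjusted p under 0.05, 16.1% were higher and 17.8% lower, and 1 member, HBD, was higher. All 9 lay above both untreated arrays, against 37.7% of all (44.3% lay below both). This count rests on untreated replicate 2, since without it 3 of 9 were over 1.5-fold higher, beside 26.1% of all, and without untreated replicate 1 it was 7 of 9, beside 26.9%. Without replicate 2 the median was 0.25. The 3 were HBD, BGLT3 and HBB on 211696_x_at. The erythroid markers had a summed linear level of 17840 with PMA, against 28720 and 29770 untreated, with TFRC and RHAG the brightest. At 5 or more were 7 of 10, against 8 in each untreated array. The median log2 value of the 10 was 6.96, against 6.82 and 6.19, so sum and median went opposite ways. The part of these markers in the globin values was not tested.

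**Figure D3:**
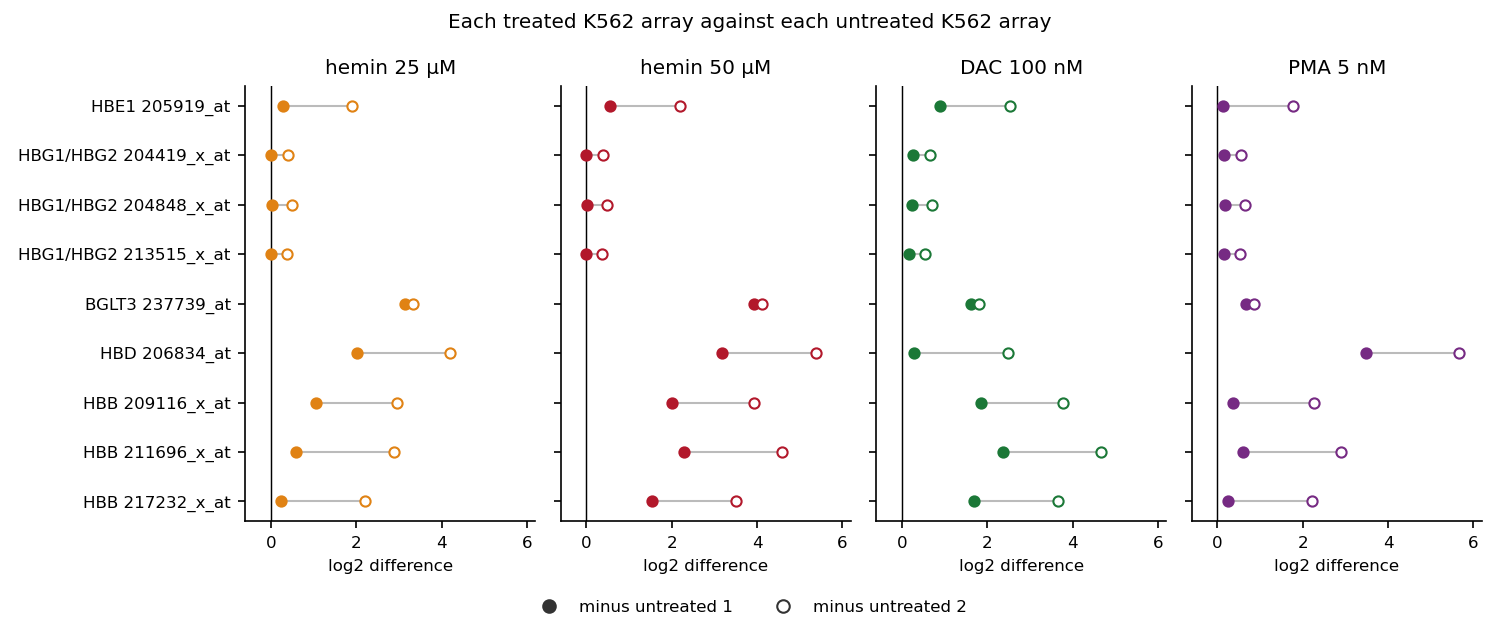
Log2 difference (horizontal axis) of each treated K562 array (panels) from untreated replicate 1 (filled) and untreated replicate 2 (open) for the 9 member probe sets (vertical axis). The filled points of the gamma probe sets lie near 0 with hemin, those of BGLT3 lie close to the open ones, and HBD with PMA has its filled point at 3.48 and its open point at 5.66.

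In HEL cells, where each condition had 1 array and no test was made, 4 of 9 member probe sets were over 1.5-fold lower with PMA and 0 higher, where 18.5% of 19457 probe sets were lower and 16.6% higher by this measure. The 4 were BGLT3 and the 3 of HBB, and the median difference of the members was -0.31, against -0.0888 over all. HBE1 differed by -0.31, the gamma probe sets by -0.11 to -0.14 and HBD by 0.56. The summed linear level of the erythroid markers was 25680 with PMA, against 52120 in untreated HEL cells, with 9 of 10 at 5 or more in both, and that of the megakaryocytic markers was 26340 against 11000, with 9 and 8 of 9 at 5 or more. Their part in the members' values was not tested. With DAC at 20 nM, 1 of the 9 was over 1.5-fold lower, BGLT3, and 0 were higher, against 7.05% lower and 6.64% higher over all, and the other 8 differed by 0.08 to 0.49.

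**Figure D4:**
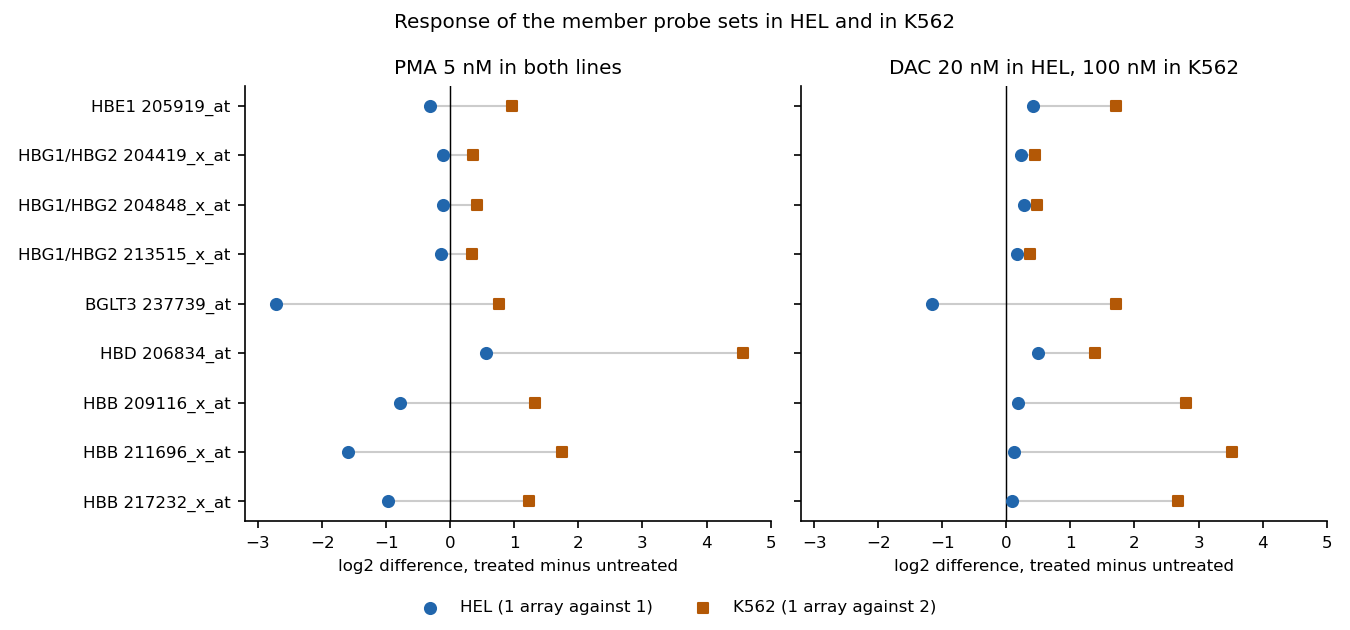
Log2 difference of treated from untreated cells (horizontal axis) for the 9 member probe sets (vertical axis) in HEL (blue circles) and K562 (orange squares), with PMA left and DAC right. BGLT3 lies at -2.72 in HEL and 0.76 in K562 with PMA, and at -1.17 and 1.71 with DAC. In HEL with PMA, HBE1 lies at -0.31, where 59.5% of kept probe sets differed more in size. The gamma probe sets lie at -0.11 to -0.14 there, where 79.5% to 84.2% differed more. How many of all probe sets lie on opposite sides of 0 in the 2 lines was not counted.

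Between the untreated lines, HEL cells were over 1.5-fold higher in 5 of 9 member probe sets, HBE1, BGLT3 and the 3 of HBB, and over 1.5-fold lower in 1, HBD, where 25.1% of 21850 probe sets were higher and 30.3% lower. The HEL array lay above both untreated K562 arrays in 5 of 9, against 36.3% of all, and below both in 0, against 45.7%. Without untreated replicate 2 of K562, 2 of 9 were over 1.5-fold higher, BGLT3 and HBB on 211696_x_at, beside 25% of all, and the median of the 9 was 0.09 in place of 0.96. Without replicate 1 it was 5 of 9, beside 26.2%. HBD was at 8.06 in HEL cells, against 10.19 and 8.01 in K562 cells, a log2 difference of -1.04 (standard error 1.24, adjusted p = 0.61 in limma) that turned to 0.05 against untreated replicate 2 alone. For HBE1 the difference was 0.96 (adjusted p = 0.491) and for the gamma probe sets 0.12 to 0.21 (adjusted p = 0.627 to 0.751). Without untreated replicate 2 of K562 the gamma probe sets turned to between -0.08 and -0.02.

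Genes with the pattern most like each member were sought among 10556 genes over the 9 arrays, by the root mean square difference of centred log2 values. For HBE1, whose own SD over the arrays was 0.72, these were NCLN at 0.29, SELENOI at 0.34 and RHBDD3 at 0.38. HBB had NCLN at 0.60, CAV2, a caveolin, at 0.62 and LBH at 0.64, beside an SD of 1.22. NCLN, which encodes a protein of the endoplasmic reticulum membrane, was thus nearest to both, and it was at 5.89 in untreated replicate 2 and at 7.14 to 8.89 elsewhere. BGLT3, with an SD of 1.5, had the antiviral gene RSAD2 at 0.75, the glutathione synthesis gene GCLM at 0.83 and the transcription factor gene MITF at 0.87, followed by HBBP1 at 0.88. For HBD, with an SD of 2.26, they were DUSP13B at 0.996, FGD6 at 1.11 and EME2 at 1.11. EME2 was at 5.46 to 5.48 in HEL cells, against 6.84 to 9.02 in K562 cells, while DUSP13B and FGD6 were under 5 in all 3 HEL arrays. Gamma globin, with an SD of 0.20, had the mitochondrial ribosomal protein gene MRPL44 at 0.101, STIMATE at 0.105 and DSPP at 0.125. Over the 6 K562 arrays alone HBD was nearest to the platelet tubulin gene TUBB1, at 0.89, and BGLT3 to the chaperone gene CLU, at 0.45. CLU was under 5 in both untreated arrays, at 4.19 and 3.52, and with PMA, at 4.60. In untreated replicate 2 of K562, CAV2 was at 4.54 and LBH at 4.36, and LBH was at 3.85 in HEL with PMA. These values are too dim to order.

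The regulators of the locus were measured beside its genes, 1 probe set per gene. Every call with PMA given for them and for the genes after them was lost without either untreated array, since limma then called 0 of all probe sets with PMA, against 2786. Over all 20260 probe sets, 0% passed with hemin, 11.9% were over 1.5-fold higher and 14.5% lower, and the median was -0.0022. With PMA 6.81% of all were called higher and 6.94% lower, and with DAC 0%. These shares belong beside the counts of every list below. Of 17 activators and enhancer factors 15 were measured, and 0 passed with hemin, with 3 over 1.5-fold higher, 5 lower and a median of -0.23. The 4 with the smallest p were STAT5B, the transcription factor of erythropoietin signalling, with a log2 change of -1.69, STAT5A with -1.20, NFYC, a subunit of the CCAAT-binding factor, with -0.75 and LDB1, which bridges the locus control region and the promoters, with 0.82. KLF1, the erythroid activator of HBB, was at 9.97 and 10.78 with hemin and at 11.84 with DAC, against 10.96 and 9.58 untreated. With PMA it was at 7.0 (log2 change -3.27, adjusted p = 0.065 in limma). With PMA 1 of the 15 fell, NFYB (log2 change -2.74, adjusted p = 0.026 in limma), and 0 rose, beside 6.94% and 6.81% of all probe sets.

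Of 28 silencers of the gamma and epsilon genes 24 were measured. With hemin 0 passed, 1 was over 1.5-fold higher and 5 were lower, with a median of -0.16, and the 4 with the smallest p were GATA2 with -0.90, MYB with -0.74, HDAC1 with -0.66 and MTA1 with -0.92. With PMA 3 of the 24 fell, beside 6.94% of all probe sets, and they are named after their values were seen. They were BCL11A, the main gamma globin repressor, DNMT1, the maintenance DNA methyltransferase, and HIC2. The last is on the list although it is known to repress BCL11A and not the globin genes themselves. BCL11A was at 3.34 with PMA, under the minimum of 5, against 6.84 and 7.52 untreated, so its log2 change of -3.84 rests on a value too dim to order (adjusted p = 0.016 in limma). DNMT1 changed by -1.66 (adjusted p = 0.027) and HIC2 by -1.52 (adjusted p = 0.045). With DAC 0 of the 24 passed. BCL11A was then at 4.69, also under 5, and it was under 5 in the 3 HEL arrays.

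The fetal RNA-binding factors had 4 of 6 measured, and 0 passed with hemin. Their changes were -0.32 for IGF2BP3, -0.08 for IGF2BP2, -0.04 for IGF2BP1 and 0.04 for LIN28B. LIN28B, which favours fetal globin, fell with PMA (log2 change -3.07, adjusted p = 0.012 in limma) and differed by -0.31 with DAC. Of 8 architecture genes measured 0 passed with hemin. The 4 with the smallest p were STAG2 with -0.56, SMC3 with -0.45, STAG1 with -0.44 and SMC1A with -0.19. With PMA 3 fell, beside 6.94% of all probe sets. They were the cohesin subunit genes SMC3 (log2 change -2.23), RAD21 (-1.73) and SMC1A (-1.51), at adjusted p = 0.024, 0.047 and 0.031 in limma. CTCF, the insulator protein gene, changed by 0.19 with hemin, -0.13 with DAC and -0.21 with PMA. Of the 6 genes of heme-regulated translation, in which the kinase EIF2AK1 stops globin synthesis when heme is short, 0 passed with any agent. The 4 with the smallest p with hemin were EIF2S1 with 0.89, ATF4 with -0.70, DDIT3 with -0.85 and PPP1R15A with -0.46. EIF2AK1 itself changed by 0.10 with hemin. DDIT3, a stress target further down, had 10.41 with the lower and 8.61 with the higher hemin dose, against 10.20 and 10.53 in untreated K562 cells.

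Genes on both sides of the locus were poorly covered, with 6 of 22 measured, and 0 passed with hemin or DAC. The 4 with the smallest p with hemin were TRIM21 with -0.99, STIM1 with -0.42, TRIM68 with -0.16 and TRIM6 with -0.54. RRM1, a subunit of ribonucleotide reductase, fell with PMA (log2 change -2.30, adjusted p = 0.020 in limma). Of the 6 genes of the alpha-like globins and their chaperone, 3 were measured, HBZ, HBQ1 and AHSP, so HBA1, HBA2 and HBM are not covered. The zeta globin gene HBZ changed by 2.60 with hemin, 2.89 with DAC and -2.47 with PMA, none past the test. HBZ was at 15.77 and 16.19 with 25 and 50 µM hemin, 16.27 with DAC and 10.91 with PMA. The untreated arrays lay far apart, at 14.71 and 12.05. HBQ1 changed by 1.04 with hemin and 0.73 with DAC, neither past the test, and it fell with PMA (log2 change -2.42, adjusted p = 0.019 in limma). AHSP, the chaperone of alpha globin, was at 7.29 with DAC and under 5 in the other 8 arrays.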

How the data were processed

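Per the labels, biotinylated RNA of K562 and HEL cells was hybridised to Affymetrix expression arrays. The authors deposited log2 expression values per probe set, made with GCRMA (version not stated), which corrects background from probe sequence and puts arrays on one scale, so it could have taken out a change common to most genes. How the 27306 probe sets were selected is not stated. By the platform annotation, with symbols updated through gene IDs, 22858 named 1 gene, 1164 named several and 3284 were not listed.

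Tests used limma 3.58.1 in R 4.3.3. Probe sets at 5 or more in at least 1 array of the fit were kept (20260 in K562, 19457 in HEL, 21850 over both). The K562 model (lmFit and eBayes, two-sided, Benjamini-Hochberg over all kept probe sets, threshold 0.05) held 6 arrays in 4 groups. The 2 hemin doses formed a single group, and 2 residual degrees of freedom remained. PMA and DAC, with 1 array each, are assumed to vary like the other arrays, and the 3 agents share the untreated arrays. The lines were compared over 9 arrays in 7 groups. On simulated data, changes by a log2 value of 2, 4 and 6 were recovered in 0.6%, 67.6% and 84.6% of cases for hemin. The figures were 0%, 36.8% and 69.4% for PMA and 0%, 33% and 69.6% for DAC, each over 20260 probe sets. Over 10 simulated sets, 46, 34 and 32 calls fell on unchanged probe sets for hemin, PMA and DAC. Few probe sets were changed, noise was independent and the hemin doses did not differ, so these rates need not hold for the arrays.

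The members and gene lists were chosen with earlier results of these data known. Named genes are all members, the 3 genes most like each, the alpha-like globins, and up to 4 of each other list with the smallest p with hemin. HBBP1, KLF1, BCL11A, DNMT1, HIC2, NFYB, RAD21, EIF2AK1, CTCF, RRM1, TUBB1 and CLU were named after their values were seen. Alternatives were quantile normalization, median centring, 2 other filters, 1 probe set per gene, an intensity trend, the 9-array fit, leaving out each untreated or hemin array, dose as a number, the untreated and hemin arrays alone, and the methods' t-test, which the paper names for its experiments in general. Counts against each untreated array and the difference of responses between lines were added after the data were seen. Promoter sequence is from RefSeq, GRCh38.p14.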

Additional observations from a re-analysis of the deposited data

Results flagged for a closer look

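Several member probe sets went opposite ways with the same agent in HEL and in K562 cells. In each, the treated HEL array lay below its untreated array while the treated K562 array lay above both untreated arrays. How many of all probe sets went opposite ways was not counted. With PMA, HBE1 differed by -0.31 in HEL, where 59.5% of kept probe sets differed more in size. In K562 it lay 0.14 above untreated replicate 1, beside a residual SD of 0.62. The gamma probe sets differed by -0.11 to -0.14 in HEL, where 79.5% to 84.2% of kept probe sets differed more. In K562 they lay 0.15 to 0.17 above that replicate, beside an SD of 0.23. The difference of the responses, HEL minus K562, was estimated in limma over 9 arrays as an interaction, with single treated arrays assumed to vary like the K562 pairs. With PMA it was -3.49 for BGLT3 (-2.72 in HEL, 0.76 in K562, standard error 0.63, adjusted p = 0.123), -1.27 for HBE1 (adjusted p = 0.646), -2.10, -3.33 and -2.20 for the HBB probe sets 209116_x_at, 211696_x_at and 217232_x_at (adjusted p = 0.488 to 0.574) and -0.46, -0.52 and -0.48 for the gamma probe sets 204419_x_at, 204848_x_at and 213515_x_at (adjusted p = 0.507 to 0.547). Of all 21850 probe sets 422 passed. With DAC the difference was -2.88 for BGLT3 (-1.17 in HEL at 20 nM, 1.71 in K562 at 100 nM, standard error 0.63, adjusted p = 0.615), and 0 of all probe sets passed in limma, with 1531 at an unadjusted p under 0.05. The DAC doses differ between the lines, so dose and line cannot be told apart. None of these member differences passed the test.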

How the results depend on the processing

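Over the member probe sets, 371 values under an alternative were counted as unchanged, while 6 reversed, 2 passed the threshold and 2 lost it. Unchanged values kept their direction and their side of the threshold, where they had a test, or lay within the spread of the untreated pair. Many of the 371 could not have changed direction, because several alternatives reuse the same group means. With no filter, a minimum of 7, 1 probe set per gene or an intensity trend, each member log2 change was identical. The same held for the fit over both lines and the methods' t-test. The untreated and hemin arrays alone repeated every standard error and adjusted p for hemin as well, so that setting was no check. With hemin, leaving out 1 array gave -0.0030 to 0.39 on the gamma probe set 204419_x_at and -0.0125 to 0.36 on 213515_x_at. For HEL minus K562 the leave-outs gave -0.079 to 0.31, -0.029 to 0.44 and -0.019 to 0.36 on 204419_x_at, 204848_x_at and 213515_x_at, and -2.13 to 0.051 for HBD. The low ends of the gamma ranges came without untreated replicate 2, and the high end for HBD without untreated replicate 1. The cause was not tested. With 1 probe set per gene, which leaves out the shared gamma sets, the median of the members with hemin was 3.06 and PMA called 1664 probe sets against 2786. The DAC count of 0 became 12 after quantile normalization, 24 after median centring, 10 with a minimum of 7, 6 with 1 probe set per gene and 31 with an intensity trend, with no member among them. With either untreated array left out, PMA called 0 and the HEL comparison 1038 to 1086 in place of 3836, where 1 residual degree of freedom remains. The count of members over 1.5-fold higher with PMA was 3 to 7 over the same settings, and for HEL against K562 it was 2 to 5. No paired analysis was possible because the labels carry no replicate numbers. Values near 15 or more, close to the highest of each array, and values under 5 limit what the arrays can show.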
